A study of Arabidopsis thaliana with 12 samples.

Results

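Seedlings that received valinomycin together with Pseudomonas syringae pv. tomato DC3000, a bacterial pathogen called DC3000 below, were compared with mock seedlings across all genes, and placed against each treatment given alone. The comparison rests on 6 of the 12 libraries, the 3 given both treatments and the 3 mock ones, and on the 18048 of 20233 genes in the table whose mean over the 12 libraries was at least 1. The plants were Arabidopsis thaliana seedlings of 2 to 3 weeks, infiltrated under vacuum and collected after 6 h, with leaf given as the tissue. Valinomycin was used at 10 µM, and the 4 groups of 3 libraries are mock, valinomycin alone, DC3000 alone, and both. The labels give no ecotype, no bacterial dose and no content of the mock liquid, and they do not say that the libraries came from separate plants, so p-values measure the spread between these samples. Values are FPKM, which scales the fragments of a gene to its transcript length and to the size of the library, a unit inferred from the deposited values. Differences are log2 fold changes of FPKM + 1, given ± their standard error, and a gene was called at a limma adjusted p under 0.05. Values of single libraries are given in the order of replicates 1, 2 and 3.

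Valinomycin is an ionophore that carries potassium across membranes and collapses electrical potentials, those of mitochondria included. In plants, impaired mitochondria signal to the nucleus and raise genes such as the alternative oxidase, which passes electrons to oxygen beside the main respiratory chain. DC3000 is a pathogen of Arabidopsis leaves that injects effector proteins and makes coronatine, a mimic of the hormone jasmonate-isoleucine, which removes the JAZ repressors of jasmonate genes and counters defences that depend on salicylic acid.

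Library totals ran from 1057472 to 1350272 FPKM, and the sequencing depth is unknown, so no counting interval can be given. The 3 libraries with both treatments correlated with each other at 0.980 to 0.990 and with mock at 0.775 to 0.820, on the log2 scale across genes, which are not independent replicates. Among the single treatments, valinomycin replicate 3 stood apart from its group, at 6.17 on the first principal component against 42.0 and 39.0 for replicates 1 and 2, so results against valinomycin alone are also given without it where a call is lost or a count moved by over 1.5 times. DC3000 replicate 3 lay at -47.1 on the second component, against -67.9 and -66.9 for replicates 1 and 2. Its ribosomal RNA loci held 21.4% of the summed FPKM, against 13.2% and 13.3%. Without it 2003 genes were called higher and 2484 lower than DC3000 alone. Results of genes and lists against DC3000 alone are given with this library. Chloroplast genes held 41.9% ± 0.931 of the summed FPKM in mock and 35.05% ± 3.47 with both (mean ± SD, n = 3), with an exact two-sided permutation p of 0.1, the smallest that 3 against 3 libraries allow. The ribosomal RNA loci held 12.15% ± 2.995 and 16.6% ± 0.990 (exact permutation p = 0.2). These RNAs share the total to which all values are scaled. The nuclear total, used below as another scaling, leaves out the chloroplast, mitochondrial and ribosomal RNA loci. Several counts are also given under it, and the part of these RNAs in the results was not tested otherwise. The 8 tested leaf mesophyll markers, such as the Rubisco and light-harvesting genes, were the most abundant marker group in all libraries, which is what the labelled tissue calls for, and 7 of them are also members of the photosynthesis lists below. Their summed level was 38840.0 to 42710.0 FPKM in mock and 14720.0 to 17480.0 with both, and all 8 were called lower. Root markers summed to 132.2 to 203.2 FPKM in mock and 168.2 to 213.7 with both, nearly all from PYK10, while CASP1, CASP2 and PHT1;1 had means under 1 FPKM. In tissue samples like these, fewer cells of a type and less RNA per cell cannot be told apart.

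With both treatments 6711 genes were called higher than mock, which is 37.2% of those tested, and 4173 genes, or 23.1%, were called lower, together 60.3%. The shares of 37.2% and 23.1% are the background for every list count against mock below. At a change of at least 2-fold the counts were 3028 (16.8%) and 1746 (9.67%). The split depends on the scaling: with median-of-ratios scaling, which sets the median change near 0, 5826 genes were called higher and 5875 lower, and with scaling to the nuclear total 7374 and 4276. The median change of all tested genes was 0.17 as reported, −0.00424 with median-of-ratios scaling and 0.19 with nuclear scaling. The 3 libraries with both lay above all 3 mock libraries for 7344 genes (40.7%) and below them for 4538 (25.1%). Against valinomycin alone, 851 genes (4.72%) were called higher and 1869 (10.4%) lower, while against DC3000 alone the counts were 2551 (14.1%) and 2436 (13.5%). These shares are the background for every list count against a single treatment below. Against valinomycin alone, median-of-ratios scaling gave 1725 higher and 1701 lower, nuclear scaling 1780 and 1255, and leaving out valinomycin replicate 3 gave 665 and 1627. Among the genes called higher than mock, 57.5% were called neither against valinomycin nor against DC3000, 26.5% were called higher than DC3000 only, and 7.05% higher than valinomycin only. Among the genes called lower than mock, these shares were 46.4% not called against either, 19.7% lower than DC3000 only and 16.2% lower than valinomycin only.

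**Figure D1:**
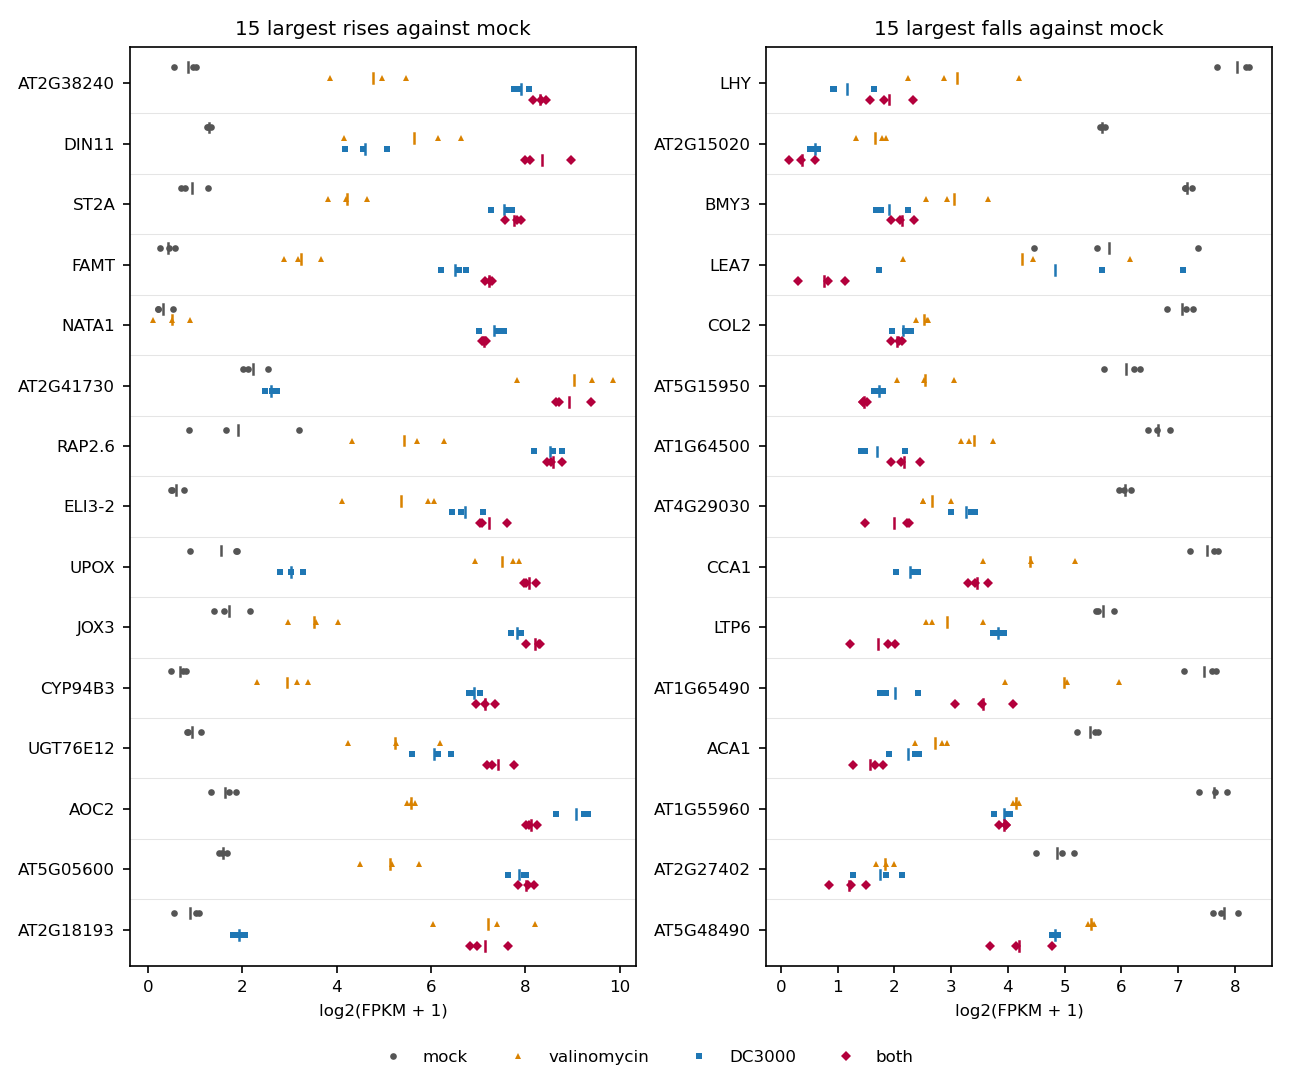
Level as log2(FPKM + 1) of the 15 genes with the largest rises and the 15 with the largest falls with both treatments against mock, 1 point per library, by group, with a vertical tick at each group mean. Genes such as NATA1 lie with the DC3000 libraries, genes such as AT2G18193 and AT2G41730 lie with the valinomycin libraries, and DIN11 and LEA7 lie beyond both.

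Among the 15 largest rises, one set stood near its level with valinomycin alone and another near its level with DC3000 alone. UPOX (AT2G21640; chromosome 2, 9254378 to 9255743, plus strand; TAIR10.1), a nuclear gene known as a marker of oxidative stress, had 0.849, 2.65 and 2.69 FPKM in mock, 233, 213 and 121 with valinomycin, 8.8, 7.16 and 5.98 with DC3000, and 258, 301 and 251 with both. All 3 libraries with both lay above the other 9, those with valinomycin alone came next, and mock and DC3000 alone were low. Its log2 change against mock was 6.53 ± 0.27 (limma adjusted p = 2.5e-10), and the difference from valinomycin alone was 0.56 ± 0.27 (limma adjusted p = 0.183), which was not called. AT2G41730 (chromosome 2, 17409370 to 17410334, plus strand) and AT2G18193 (chromosome 2, 7917413 to 7919345, minus strand), the latter annotated as a P-loop nucleoside triphosphate hydrolase, overlapped with valinomycin alone and lay above DC3000 alone, with changes against mock of 6.69 ± 0.38 and 6.27 ± 0.39 (limma adjusted p = 4.1e-09 and 9.65e-09). With DC3000 alone AT2G41730 differed from mock by 0.39 ± 0.38 (limma adjusted p = 0.412) and AT2G18193 by 1.04 ± 0.39 (limma adjusted p = 0.0377). UPOX belongs to the list of mitochondrial stress genes. Of 16 tested genes 13 were called higher than mock and 1 lower, with a median log2 fold change 2.13 with both, 2.06 with valinomycin and 0.58 with DC3000, beside 0.17 over all tested genes with both. Of the same 16, 12 were called higher than with DC3000 alone and 1 higher than with valinomycin alone; without valinomycin replicate 3, 3 were called lower than valinomycin alone.

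AOX1A (AT3G22370), the main stress-responsive alternative oxidase, had 4.76, 4.82 and 3.54 FPKM in mock, 359.7, 276 and 114 with valinomycin, 13.3, 17.1 and 12.9 with DC3000, and 216, 327 and 194 with both. Every library with valinomycin, alone or combined, lay above every library without it. The change with both was 5.49 ± 0.32 (limma adjusted p = 5.73e-09). UGT74E2 (AT1G05680), which glucosylates an auxin precursor, rose by 6.05 ± 0.42 (limma adjusted p = 2.83e-08), and HSP23.6 (AT4G25200), a small heat shock protein of mitochondria, by 4.59 ± 0.31 (limma adjusted p = 2.18e-08). With DC3000 alone HSP23.6 stood at -0.04 ± 0.31 against mock (limma adjusted p = 0.922).

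The bases before the start of 3 of these genes are printed because each holds the mitochondrial dysfunction motif, which NAC factors of the mitochondrial stress response are known to bind. The motif was searched as CTTG followed, after any 5 bases, by CAAG or CACG, on both strands of the 250 bases before each gene start (RefSeq, TAIR10.1). Each sequence runs 5′ to 3′ on the gene's strand, in lower case, with matches on either strand in capitals to this motif and to the G-box CACGTG, the W-box TTGACC or TTGACT, and TGACG. Matches that touch or overlap run together.
UPOX, chr2:9254128-9254377, plus strand: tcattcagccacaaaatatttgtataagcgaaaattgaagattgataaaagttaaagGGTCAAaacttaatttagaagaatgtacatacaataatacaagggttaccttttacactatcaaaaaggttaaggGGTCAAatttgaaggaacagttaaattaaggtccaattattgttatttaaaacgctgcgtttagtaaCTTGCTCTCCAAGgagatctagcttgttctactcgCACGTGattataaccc
AT2G18193, chr2:7919346-7919595, minus strand: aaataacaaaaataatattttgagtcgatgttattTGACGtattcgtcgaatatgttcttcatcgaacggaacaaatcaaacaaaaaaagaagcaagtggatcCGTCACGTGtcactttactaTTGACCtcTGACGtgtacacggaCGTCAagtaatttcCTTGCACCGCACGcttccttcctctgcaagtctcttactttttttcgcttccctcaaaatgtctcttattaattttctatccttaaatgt
CYP81D8, chr4:17571744-17571993, minus strand: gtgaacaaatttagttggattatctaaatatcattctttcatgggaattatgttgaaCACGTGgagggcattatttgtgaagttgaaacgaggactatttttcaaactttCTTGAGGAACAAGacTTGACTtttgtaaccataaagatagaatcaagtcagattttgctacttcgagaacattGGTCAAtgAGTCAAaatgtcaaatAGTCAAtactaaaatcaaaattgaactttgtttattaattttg

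In these sequences the runs of capitals that begin with CTTG are the mitochondrial dysfunction motif. It was found in 145 of 17870 promoters (0.811%), in 52 of 3027 genes called higher at least 2-fold (1.72%), in 10 of 1712 called lower at least 2-fold (0.584%) and in 5 of the 16 mitochondrial stress genes (31.2%). That list was chosen by role in this stress response, so its share is not a separate result. Among genes above both single treatments the motif was in 1 of 162 (0.617%). A match describes the letters and is not a site of binding.

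The gene of the third sequence, CYP81D8 (AT4G37370; chromosome 4, 17569740 to 17571743, minus strand), encodes a P450 enzyme of the response to foreign compounds and had 3.14, 2.99 and 1.8 FPKM in mock, 828, 530.5 and 162 with valinomycin, 3.19, 2.55 and 9.16 with DC3000, and 206, 405 and 196 with both. The libraries with both overlapped those with valinomycin and lay far above the others, and the change against mock was 6.15 ± 0.50 (limma adjusted p = 1.39e-07). The detoxification list, made of glutathione transferases, glycosyltransferases, efflux carriers and the reductases OPR1 and OPR2, includes it. Of 28 tested genes 26 were called higher than mock and 0 lower, with a median log2 fold change 3.15 with both, 3.67 with valinomycin and 0.51 with DC3000. All but 4 of the 28 were called higher than with DC3000 alone, whereas against valinomycin alone 2 were called higher and 2 lower, the latter becoming 14 without valinomycin replicate 3. GSTF6 (AT1G02930) and GSTF7 (AT1G02920), phi-class glutathione transferases, rose by 5.86 ± 0.40 (limma adjusted p = 2.81e-08), and by 5.40 ± 0.36 (limma adjusted p = 2.18e-08). Both also passed the test with DC3000 alone, at 3.41 ± 0.40 and 2.27 ± 0.36 (limma adjusted p = 8.36e-06 and 0.000134).

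Genes of pattern-triggered immunity, the response to conserved microbial molecules, and of heat stress also stood nearer to valinomycin alone. Of the 36 tested immunity genes 28 were called higher than mock and 0 lower, with a median log2 fold change 1.24 with both, 1.77 with valinomycin and 0.21 with DC3000. WRKY33 (AT2G38470), a transcription factor required for camalexin synthesis, had 7.33, 9.21 and 4.91 FPKM in mock, 402, 240.5 and 94.4 with valinomycin, 5.53, 6.5 and 15.2 with DC3000, and 90.7, 209 and 66.9 with both. Its libraries with both lay above those with DC3000 and mock, and the difference from DC3000 alone was 3.56 ± 0.49 (limma adjusted p = 0.000177). PUB22 and PUB23, ubiquitin ligases that dampen this immunity, rose by 3.66 ± 0.42 and 3.42 ± 0.29 (limma adjusted p = 4.13e-06 and 2.38e-07). Against DC3000 alone 25 of the 36 were called higher, and against valinomycin alone 5 were called lower, which became 14 without valinomycin replicate 3. Over all tested genes 14.1% were called higher than DC3000 alone and 10.4% lower than valinomycin alone, so the 5 lie near the general share. In the list of heat shock proteins and factors 12 of 23 were called higher than mock, 2 lower, and 19 higher than with DC3000 alone. Against valinomycin alone 1 was called lower, or 5 without valinomycin replicate 3. HSP17.6A (AT5G12030), a cytosolic small chaperone, had 0.878, 0.886 and 1.74 FPKM in mock, 146, 117 and 63.9 with valinomycin, 1.65, 2.97 and 2.71 with DC3000, and 104, 159.5 and 102 with both, and its change with both was 5.82 ± 0.28 (limma adjusted p = 1.06e-09). HSP90-1, the stress-inducible cytosolic HSP90, rose by 3.42 ± 0.28 with both (limma adjusted p = 1.6e-07), against 3.70 with valinomycin alone and -0.12 with DC3000 alone. Endoplasmic reticulum folding genes were mixed, with 10 of 22 called higher and 6 lower, near the shares of all genes. BZIP60, whose messenger RNA is spliced by IRE1 under folding stress, rose by 2.36 ± 0.34 (limma adjusted p = 3.26e-05).

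The jasmonate genes formed the other set, high with both and with DC3000 alone. Their list medians were also raised with valinomycin alone, by less. NATA1 (AT2G39030; chromosome 2, 16298110 to 16299205, plus strand), which acetylates ornithine and is induced by jasmonate, had 0.158, 0.44 and 0.155 FPKM in mock, 0.0733, 0.858 and 0.415 with valinomycin, 186, 172 and 128 with DC3000, and 136, 134 and 142 with both. The libraries with both and with DC3000 overlapped, and mock and valinomycin overlapped at a low level. Its change against mock was 6.80 ± 0.20 (limma adjusted p = 1.18e-11), and valinomycin alone differed from mock by 0.18 ± 0.20 (limma adjusted p = 0.449). Enzymes that remove active jasmonates were called higher in 8 of 8, with a median log2 fold change 4.96 with both, 1.86 with valinomycin and 4.71 with DC3000, and all 8 were also called higher than with valinomycin alone while none was called against DC3000 alone. JOX3 (AT3G55970), which hydroxylates jasmonate, had 3.45, 2.04 and 1.62 FPKM in mock and 314, 317 and 258 with both, and CYP94B3 (AT3G48520), which hydroxylates jasmonate-isoleucine, had 0.392, 0.745 and 0.673 FPKM in mock and 141, 164 and 123 with both. Neither pair of groups overlapped, and the changes were 6.5 ± 0.24 and 6.48 ± 0.23 (limma adjusted p = 8.23e-11 and 4.92e-11). ST2A (AT5G07010), a sulfotransferase of hydroxylated jasmonate, rose by 6.84 ± 0.21 (limma adjusted p = 2.03e-11).

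In jasmonate synthesis 14 of 15 genes were called higher than mock and 0 lower. The median log2 fold change was 3.16 with both, 1.79 with valinomycin and 2.645 with DC3000. Against DC3000 alone, 5 of the 15 were called lower and 2 higher. AOC2 (AT3G25770), an allene oxide cyclase, had 2.63, 1.53 and 2.29 FPKM in mock, 47.0, 49.2 and 44.0 with valinomycin, 608, 642 and 403 with DC3000, and 301, 259 and 268 with both. With both it lay above mock and valinomycin and below DC3000 alone, in all libraries, with differences of 6.47 ± 0.18 from mock and -0.97 ± 0.18 from DC3000 (limma adjusted p = 1.18e-11 and 0.0015). LOX2 (AT3G45140), the lipoxygenase that begins the pathway in chloroplasts, rose by 5.61 ± 0.23 over mock, and differed from DC3000 alone by -0.66 ± 0.23 (limma adjusted p = 1.85e-10 and 0.0428). ACX1 (AT4G16760), an acyl-CoA oxidase of the peroxisomal steps, was the member above both single treatments, by 1.27 ± 0.30 over valinomycin and 1.52 ± 0.30 over DC3000 (limma adjusted p = 0.0123 and 0.00235). Of the repressors and transcription factors 17 of 18 were called higher than mock, 13 higher than with valinomycin alone, and 3 lower than with DC3000 alone. JAZ10 (AT5G13220), a JAZ repressor, had 1.47, 1.78 and 1.15 FPKM in mock, 8.73, 5.6 and 3.67 with valinomycin, 274, 284 and 139 with DC3000, and 138, 101 and 118 with both, and its change with both was 5.6 ± 0.28 (limma adjusted p = 1.34e-09). JAZ1 differed from DC3000 alone by -0.17 ± 0.27 (limma adjusted p = 0.682).

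The jasmonate and coronatine output list had all 10 members called higher than mock and than valinomycin alone, with 5 called lower than DC3000 alone and 1 higher. VSP2 (AT5G24770), a vegetative storage protein, had 2.31, 2.24 and 3.18 FPKM in mock, 4.96, 2.03 and 4.64 with valinomycin, 469, 547 and 231 with DC3000, and 125, 80.6 and 126 with both. Its libraries with both lay between those of DC3000 alone and those of mock and valinomycin, with differences of 4.95 ± 0.31 from mock and -1.84 ± 0.31 from DC3000 (limma adjusted p = 1.16e-08 and 0.000808). CORI3 (AT4G23600), a coronatine-induced cystine lyase, had a mean of 86.8 ± 11 FPKM with both against 264 ± 74.8 with DC3000 alone and 2.79 ± 1.12 in mock (mean ± SD, n = 3). It rose by 4.58 ± 0.26 (limma adjusted p = 4.48e-09) over mock and differed from DC3000 alone by -1.56 ± 0.26 (limma adjusted p = 0.000755). NAC019 (AT1G52890) and NAC055 (AT3G15500), transcription factors that coronatine is known to raise and that lower salicylic acid, rose by 5.81 ± 0.39 and 5.12 ± 0.30 over mock (limma adjusted p = 2.37e-08 and 6.34e-09).

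**Figure D2:**
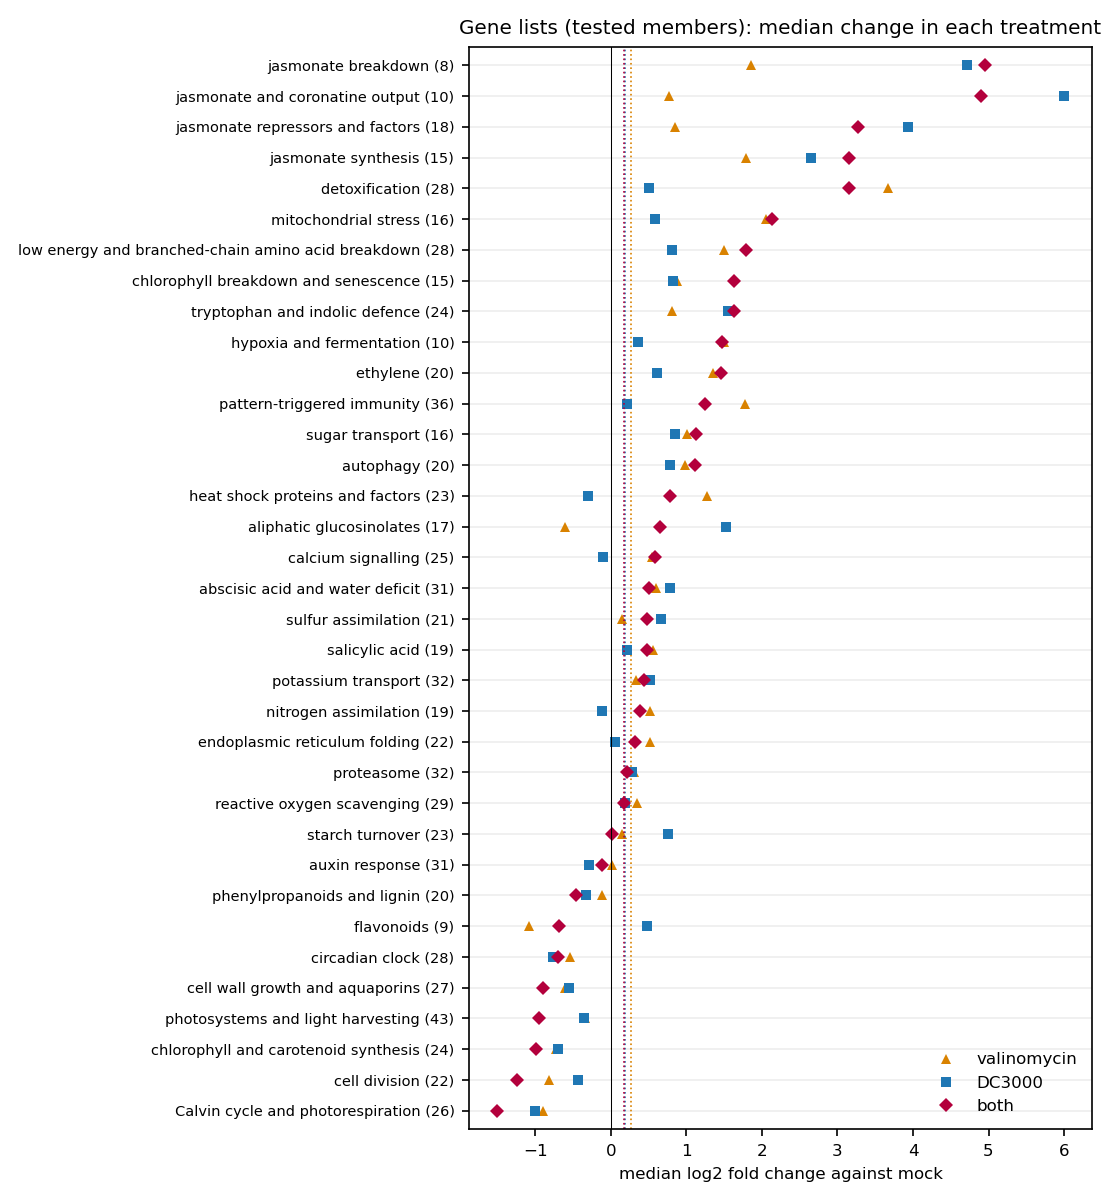
Median log2 fold change against mock of the tested members of each gene list with valinomycin, with DC3000 and with both treatments, with the median of all tested genes marked. Mitochondrial stress, detoxification and heat shock lists lie with valinomycin, jasmonate lists lie nearer DC3000, and photosystems lie below both single treatments.

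Salicylic acid genes had a smaller median change than those of jasmonate, with 10 of 19 called higher than mock, 3 lower, and a median log2 fold change 0.48 with both, 0.56 with valinomycin and 0.21 with DC3000. UGT76B1 and UGT74F2, which attach glucose to salicylic acid, rose by 4.72 ± 0.39 and 3.94 ± 0.38 (limma adjusted p = 1.71e-07 and 7.65e-07). ICS1 (AT1G74710), which makes most of the salicylic acid in infected leaves, had 5.05, 4.3 and 3.98 FPKM in mock, 2.59, 3.07 and 3.59 with valinomycin, 3.18, 2.71 and 2.93 with DC3000, and 2.13, 1.55 and 2.04 with both, and it differed from mock by -0.90 ± 0.15 (limma adjusted p = 0.000152). Ethylene genes were called higher in 17 of 20, and 15 were higher than with DC3000 alone. ACS2, which makes the precursor of ethylene, rose by 2.93 ± 0.38, and ERF5, an ethylene response factor, by 3.54 ± 0.34 (limma adjusted p = 1.23e-05 and 6.91e-07). ERF2 (AT5G47220), of the same factor family, was above each single treatment, by 1.33 ± 0.23 over valinomycin and 1.06 ± 0.23 over DC3000 (limma adjusted p = 0.00183 and 0.00437).

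Genes of tryptophan synthesis and its indolic products were called higher in 22 of 24, with a median log2 fold change 1.63 with both, 0.81 with valinomycin and 1.55 with DC3000. Of the 24, 13 were called higher than with valinomycin alone and 0 lower, or 3 lower without valinomycin replicate 3. Against DC3000 alone 9 were called higher and 5 lower, and 3 passed both single treatments. These 3 were ASA1 (AT5G05730), ASB1 (AT1G25220) and TSB1 (AT5G54810), subunits of anthranilate synthase and of tryptophan synthase. ASA1 had 7.36, 7.71 and 6.99 FPKM in mock, 25.8, 25.7 and 20.8 with valinomycin, 62.0, 61.7 and 47.4 with DC3000, and 80.3, 106 and 73.1 with both. All 3 libraries with both lay above the other 9, with a change over mock of 3.37 ± 0.16 (limma adjusted p = 1.11e-09), and excesses of 1.79 ± 0.16 over valinomycin and 0.58 ± 0.16 over DC3000 (limma adjusted p = 6.35e-06 and 0.0163). TSB1 exceeded valinomycin alone by 1.42 ± 0.17 and DC3000 alone by 0.84 ± 0.17 (limma adjusted p = 9.95e-05 and 0.00295). PAD3 (AT3G26830), the last enzyme of camalexin synthesis, had 0.282, 0.165 and 0.185 FPKM in mock, 24.3, 25.6 and 12.1 with valinomycin, 0.722, 0.744 and 1.21 with DC3000, and 32.0, 59.3 and 26.5 with both, and it rose by 4.97 ± 0.29 (limma adjusted p = 4.94e-09). Its libraries with both lay above the other 9, but the difference from valinomycin alone was 0.88 ± 0.29 (limma adjusted p = 0.0523).

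Aliphatic glucosinolates, sulfur-rich defence compounds made from methionine, had a level with both that lay between the single treatments. Of 17 tested genes 9 were called higher than mock and 0 lower, with a median log2 fold change 0.65 with both, -0.60 with valinomycin and 1.52 with DC3000. Against valinomycin alone 10 were called higher, which became 15 without valinomycin replicate 3, and against DC3000 alone 10 were called lower. CYP79F1 (AT1G16410), which begins the core pathway, had 7.06, 6.68 and 3.00 FPKM in mock, 1.25, 1.45 and 7.06 with valinomycin, 34.5, 37.5 and 23.7 with DC3000, and 23.9, 21.9 and 15.3 with both, and its change with both was 1.74 ± 0.40 (limma adjusted p = 0.00178). Valinomycin replicate 3 was the highest of its group for this gene. IMD1 (AT5G14200), an isopropylmalate dehydrogenase of chain elongation, rose by 1.02 ± 0.25 with both, against -0.82 ± 0.25 with valinomycin and 2.1 ± 0.25 with DC3000 (limma adjusted p = 0.0024, 0.0118 and 7.32e-06). Sulfur assimilation had 11 of 21 called higher and 4 lower, beside 37.2% and 23.1% of all tested genes. APK1, an APS kinase that supplies the sulfate donor, was up by 1.82 ± 0.22 and APR2, an APS reductase, stood at -2.81 ± 0.15 against mock (limma adjusted p = 6.88e-06 and 2.83e-09).

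Abscisic acid and water deficit genes were called in both directions, in shares near the 37.2% higher and 23.1% lower of all tested genes. Of 31 tested genes 13 were called higher than mock and 6 lower, and against DC3000 alone 13 of them were called lower and 7 higher. Over all tested genes 13.5% were called lower than DC3000 alone and 14.1% higher. LEA7 (AT1G52690; chromosome 1, 19619724 to 19621534, plus strand), a late embryogenesis abundant protein thought to guard proteins and membranes in drying cells, had 46.2, 162 and 20.9 FPKM in mock, 20.8, 3.44 and 69.7 with valinomycin, 2.32, 134 and 49.8 with DC3000, and 0.236, 1.19 and 0.779 with both. The 3 libraries with both lay below all 9 others, while the other groups spread widely and overlapped. This gene is not a member of the list and is described as one of the 15 largest falls. Its change against mock was -5.03 ± 1.14 (limma adjusted p = 0.00159); against valinomycin alone it was -3.49 ± 1.14 (limma adjusted p = 0.0533), and against DC3000 alone -4.07 ± 1.14 (limma adjusted p = 0.0171). RD29B (AT5G52300), a protein induced by drying and abscisic acid, had 7.82, 15.8 and 4.5 FPKM in mock, 2.34, 0.502 and 8.56 with valinomycin, 0.721, 21.6 and 5.76 with DC3000, and 0.0353, 0.138 and 0.227 with both, and the change with both was -3.05 ± 0.75 (limma adjusted p = 0.00282). The dehydrin RAB18 (AT5G66400) had 51.0, 113 and 48.0 FPKM in mock, 37.3, 13.3 and 88.2 with valinomycin, 21.9, 110.1 and 52.4 with DC3000, and 8.26, 11.9 and 13.5 with both, and the change with both was -2.46 ± 0.59 (limma adjusted p = 0.0023). RD29B was lowest in the 3 libraries with both, whereas RAB18 with both overlapped valinomycin replicate 2, and in both genes the libraries of each single treatment spread over several fold. COR15A (AT2G42540), a cold-regulated chloroplast protein, had 99.6, 191 and 109 FPKM in mock, 148, 224 and 241 with valinomycin, 1176, 1235 and 510.0 with DC3000, and 147, 130.4 and 125 with both. It was high with DC3000 alone only, at 2.82 ± 0.31 (limma adjusted p = 4.15e-06) against mock, and stood at 0.07 ± 0.31 (limma adjusted p = 0.87) with both.

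ABI1 (AT4G26080), a phosphatase that restrains abscisic acid signalling, had 7.61, 9.42 and 4.99 FPKM in mock, 45.1, 39.9 and 26.3 with valinomycin, 104, 109 and 55.3 with DC3000, and 79.6, 94.3 and 92.2 with both and rose by 3.46 ± 0.27 (limma adjusted p = 7.95e-08). RD20 (AT2G33380), a caleosin of the drought response, rose by 3.07 ± 0.35 (limma adjusted p = 4.5e-06), and differed from DC3000 alone by -1.20 ± 0.35 (limma adjusted p = 0.0221). CYP707A1 (AT4G19230), which breaks down abscisic acid, had 3.5, 4.32 and 1.67 FPKM in mock, 4.12, 3.42 and 3.17 with valinomycin, 7.55, 8.46 and 7.34 with DC3000, and 16.4, 21.9 and 15.8 with both. It was the member of this list above both single treatments, by 2.05 ± 0.22 over valinomycin and 1.1 ± 0.22 over DC3000 (limma adjusted p = 3.04e-05 and 0.00231). Guard cell markers summed to 37.97 to 53.87 FPKM in mock and 39.7 to 41.49 with both, with 1 of 8 called higher and 1 lower, or 4 lower with median-of-ratios scaling. With that scaling 5875 of all 18048 tested genes were called lower than mock, beside 4173 as reported.

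**Figure D3:**
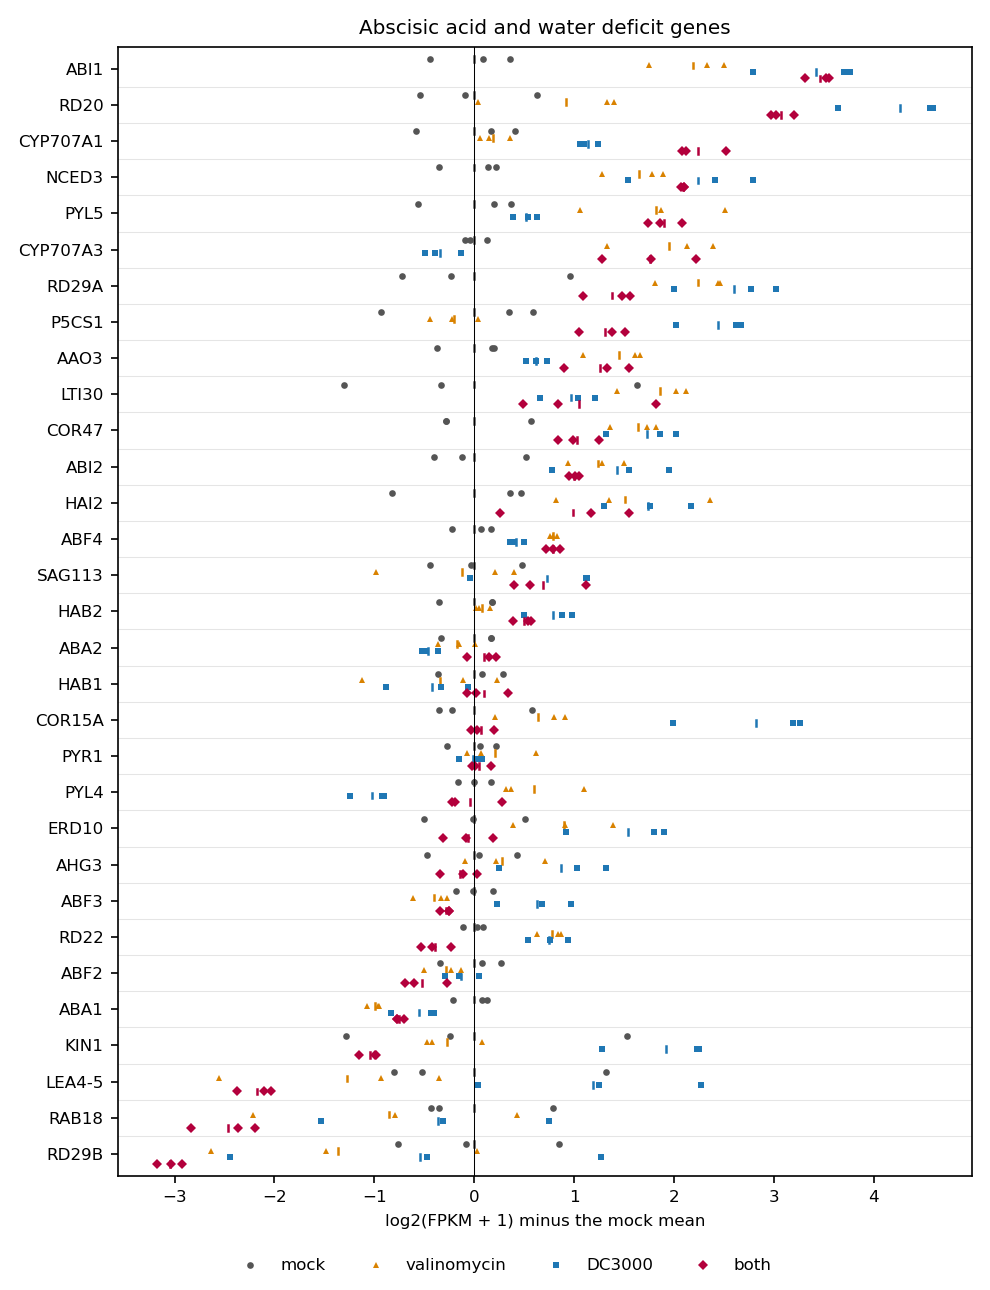
Level as log2(FPKM + 1) minus the mock mean of the 31 tested abscisic acid and water deficit genes, 1 point per library, by group, with a vertical tick at each group mean. ABI1, RD20 and CYP707A1 lie higher with both treatments than in mock, while RD29B and RAB18 lie lower, with a wide spread in the single groups.

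Genes of low energy and of branched-chain amino acid breakdown, which plant cells turn to when sugar is short, were higher with both than with either treatment for several members. Of 28 tested genes 23 were called higher than mock and 2 lower, with a median log2 fold change 1.80 with both, 1.5 with valinomycin and 0.81 with DC3000. Against DC3000 alone 20 were called higher, against valinomycin alone 7, and 5 passed both. Of all tested genes 164 (0.909%) were above both. The list number that passed both was 8 with either scaling, where the count over all tested genes rose to 474 with median-of-ratios and 559 with nuclear scaling. It was 2 without valinomycin replicate 3, where the count over all tested genes was 109. Without that library 4 were called higher than with valinomycin alone. DIN11 (AT3G49620; chromosome 3, 18393747 to 18397050, plus strand), a dark-inducible oxygenase, had 1.39, 1.51 and 1.41 FPKM in mock, 97.8, 69.5 and 16.9 with valinomycin, 17.1, 22.6 and 32.6 with DC3000, and 252, 499 and 275 with both. All 3 libraries with both lay above every other library, and valinomycin replicate 3 was the lowest of its group. The change over mock was 7.07 ± 0.46 (limma adjusted p = 1.71e-08), over valinomycin 2.71 ± 0.46 (limma adjusted p = 0.00162), and over DC3000 3.75 ± 0.46 (limma adjusted p = 8.03e-05). Without valinomycin replicate 3 the excess over valinomycin was 1.97 ± 0.27 (limma adjusted p = 0.00022). BCAT2 (AT1G10070), a branched-chain aminotransferase, exceeded valinomycin alone by 1.12 ± 0.32 and DC3000 alone by 1.92 ± 0.32 (limma adjusted p = 0.0306 and 0.000779), with a rise over mock of 5.96 ± 0.32. Without valinomycin replicate 3 the excess of BCAT2 over valinomycin was 0.71 ± 0.26 and was not called (limma adjusted p = 0.0909). DIN6 (AT3G47340), an asparagine synthetase raised in darkness, had 29.3, 34.0 and 35.4 FPKM in mock, 336, 272 and 127 with valinomycin, 209, 239.8 and 202 with DC3000, and 499, 512 and 422 with both, and exceeded valinomycin alone by 1.07 ± 0.26 and DC3000 alone by 1.14 ± 0.26 (limma adjusted p = 0.0131 and 0.00535). Without that library DIN6 exceeded valinomycin by 0.65 ± 0.16 and was still called (limma adjusted p = 0.0125). SIP2 (AT3G57520), an alpha-galactosidase that cleaves raffinose, rose by 3.96 ± 0.28 (limma adjusted p = 3.02e-08) and passed valinomycin alone by 2.03 ± 0.28 and DC3000 alone by 1.5 ± 0.28.

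Autophagy genes, which recycle cell contents, were called higher in 19 of 20 and lower in 0, with a median log2 fold change 1.12 with both, 0.98 with valinomycin and 0.79 with DC3000. ATG8H and ATG8E, ubiquitin-like proteins that coat the autophagosome, rose by 2.47 ± 0.31 and 2.1 ± 0.25, and NBR1, a cargo receptor, by 1.84 ± 0.16 (limma adjusted p = 1.08e-05, 5.32e-06 and 2.62e-07). Among chlorophyll breakdown and senescence genes 9 of 15 were called higher and 1 lower. WRKY75 (AT5G13080; chromosome 5, 4149738 to 4151201, minus strand), a factor that promotes leaf senescence, had 1.12, 0.483 and 0.279 FPKM in mock, 17.9, 9.29 and 5.0 with valinomycin, 4.05, 3.63 and 4.94 with DC3000, and 26.3, 64.1 and 27.0 with both. All libraries with both lay above all others, and the excess was 1.80 ± 0.38 (limma adjusted p = 0.00566) over valinomycin and 2.83 ± 0.38 (limma adjusted p = 0.000138) over DC3000. WRKY45 (AT3G01970), another senescence-promoting factor, exceeded the single treatments by 2.03 ± 0.22 and 1.35 ± 0.22 (limma adjusted p = 3.82e-05 and 0.000675). NAC092, also called ORE1, rose by 3.57 ± 0.21 over mock and differed from DC3000 alone by 0.43 ± 0.21 (limma adjusted p = 5.17e-09 and 0.131). In hypoxia and fermentation 9 of 10 genes were called higher, among them PDC2 (AT5G54960), a pyruvate decarboxylase, by 5.55 ± 0.16 (limma adjusted p = 1.18e-11), and HB1, a haemoglobin that removes nitric oxide, by 2.02 ± 0.21 (limma adjusted p = 1.46e-06). PDC2 also passed each single treatment, by 1.26 ± 0.16 over valinomycin and 0.58 ± 0.16 over DC3000 (limma adjusted p = 0.000134 and 0.0148).

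Photosynthesis lists showed the reverse: their median changes were lower with both than with either single treatment, though not every member was called so. Over all tested genes the mean with both also lay below both single treatments more often than above them, in 41.9% against 22.5%. With nuclear scaling these shares were 32.6% and 32.2%. In photosystems and light harvesting 38 of 43 genes were called lower than mock and 0 higher, with a median log2 fold change -0.96 with both, -0.34 with valinomycin and -0.36 with DC3000. Of the 43, 34 were called lower than valinomycin alone (21 with nuclear scaling, 22 without valinomycin replicate 3), 34 lower than DC3000 alone, and 26 lower than both single treatments and mock, where 3.19% of all tested genes were. That count was 19 with median-of-ratios scaling, 18 with nuclear scaling and 19 without valinomycin replicate 3. LHCB2.3 (AT3G27690; chromosome 3, 10255906 to 10257489, plus strand), an antenna protein of photosystem II, had 937, 927 and 843 FPKM in mock, 169, 170.3 and 269.8 with valinomycin, 174, 165 and 195 with DC3000, and 73.0, 61.4 and 104 with both. The libraries with both lay below all others, and the change against mock was -3.52 ± 0.20 (limma adjusted p = 4.48e-09). PSBS, which is needed to shed excess light energy as heat, fell by 1.84 ± 0.15 on the log2 scale (limma adjusted p = 1.56e-07), and PSBO2, of the oxygen-evolving complex, fell by 1.80 ± 0.14 on the log2 scale (limma adjusted p = 9.06e-08).

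In the Calvin cycle and photorespiration 23 of 26 were called lower than mock and 1 higher, with a median log2 fold change -1.5 with both, -0.90 with valinomycin and -1.01 with DC3000. The number below both single treatments was 11, or 7 with median-of-ratios scaling, 5 with nuclear scaling and 9 without valinomycin replicate 3. RBCS1B (AT5G38430; chromosome 5, 15383167 to 15385320, minus strand), a small subunit of Rubisco, had 1905, 1793 and 1765 FPKM in mock, 671, 652 and 920.4 with valinomycin, 519, 544 and 556 with DC3000, and 330.5, 286 and 350.3 with both. All 3 libraries with both were the lowest of the 12, with differences of -2.50 ± 0.15 from mock, -1.20 ± 0.15 from valinomycin and -0.75 ± 0.15 from DC3000 (limma adjusted p = 5.73e-09, 9.87e-05 and 0.0021). FBA1, a plastid aldolase, fell by 2.83 ± 0.14 on the log2 scale (limma adjusted p = 1.61e-09), and GLDP1, the P-protein of glycine decarboxylase in photorespiration, fell by 2.38 ± 0.16 on the log2 scale (limma adjusted p = 1.95e-08). Chlorophyll and carotenoid synthesis had 18 of 24 called lower and 2 higher, and 2 members below both single treatments, or 0 without valinomycin replicate 3. GUN5, the magnesium chelatase subunit that begins the chlorophyll branch, fell by 2.33 ± 0.14 on the log2 scale (limma adjusted p = 6.94e-09). Of the 8 mesophyll markers 7 are members of the photosynthesis lists, so their fall is not a separate result. The chloroplast RNA share was also lower with both than in mock (exact permutation p = 0.1). Nuclear scaling, which leaves chloroplast RNA out of the total, gave the counts below both stated above. The part of the marker levels and of the chloroplast share in these lists was not tested otherwise.

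**Figure D4:**
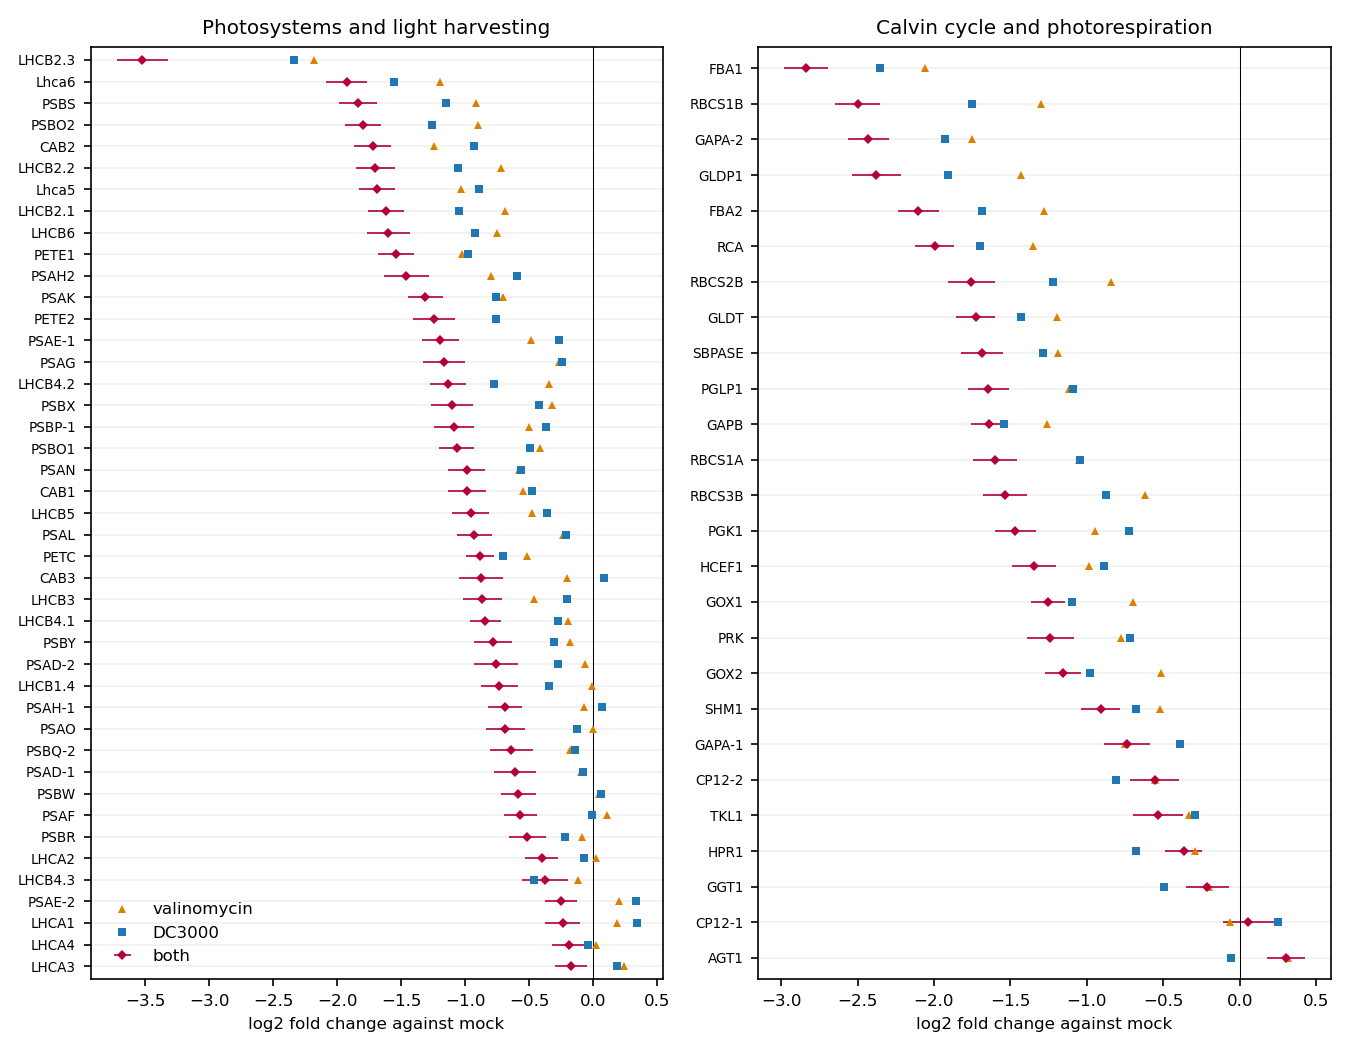
Log2 fold change against mock with valinomycin alone, with DC3000 alone and with both treatments for each tested photosystem and Calvin cycle gene, with bars of 1 standard error on the points for both. For most genes the point for both lies to the left of the points for the single treatments.

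Growth-related genes were mostly lower. Cell wall growth genes and aquaporins were called lower in 19 of 27 and higher in 3, with 7 below both single treatments, or 4 without valinomycin replicate 3. EXPA15, an expansin that loosens walls, fell by 2.48 ± 0.19 on the log2 scale (limma adjusted p = 1.02e-07), and DELTA-TIP, a vacuolar aquaporin, fell by 2.38 ± 0.16 on the log2 scale (limma adjusted p = 1.65e-08), whereas the expansin EXPA10 rose by 2.94 ± 0.23, near DC3000 alone at 3.25 ± 0.23. Cell division genes were called lower in 20 of 22 and higher in 0, with a median log2 fold change -1.24 with both, -0.82 with valinomycin and -0.44 with DC3000. KNOLLE, the syntaxin of the dividing cell plate, fell by 2.1 ± 0.24 on the log2 scale (limma adjusted p = 4.55e-06), and the mitotic cyclin CYCB1;2 fell by 1.74 ± 0.22 on the log2 scale (limma adjusted p = 1.08e-05). Against valinomycin alone 1 of the 22 was called lower, or 0 without valinomycin replicate 3, and against DC3000 alone 15. Shoot meristem and epidermis markers summed to 375.8 to 560.0 FPKM in mock and 198.0 to 211.5 with both, with 5 of 9 called lower (8 with median-of-ratios scaling), and their part in these counts was not tested. Over all 18048 tested genes 4173 were called lower than mock as reported, and 5875 with median-of-ratios scaling.

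The largest fall was in a circadian clock gene. LHY (AT1G01060; chromosome 1, 33365 to 37871, minus strand) encodes a transcription factor that peaks at dawn and had 303, 291 and 206 FPKM in mock, 17.3, 6.36 and 3.7 with valinomycin, 0.923, 0.88 and 2.11 with DC3000, and 2.53, 4.0 and 1.98 with both. Mock was high in all 3 libraries, and every treated group was far below it. Its change with both was -6.14 ± 0.38 (limma adjusted p = 9.81e-09), beside -4.94 ± 0.38 with valinomycin alone and -6.88 ± 0.38 with DC3000 alone. CCA1, its close relative, fell by 4.05 ± 0.29 on the log2 scale (limma adjusted p = 4.56e-08), and PRR5, an afternoon repressor, rose by 5.04 ± 0.15 (limma adjusted p = 1.24e-11). Over the list 12 of 28 genes were called higher and 15 lower than mock, while 4 were called lower than valinomycin alone and 7 higher than DC3000 alone. Over all tested genes 10.4% were called lower than valinomycin alone, a share near that of the list, and 14.1% higher than DC3000 alone. The list count lower than valinomycin was 7 without valinomycin replicate 3, 2 with median-of-ratios scaling and 1 with nuclear scaling. The labels give the time after infiltration and not the time of day of each group, so collection time and treatment cannot be told apart here.

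For the ion that valinomycin carries, 16 of 32 potassium transport genes were called higher than mock and 5 lower, with a median change of 0.44. Over all tested genes 37.2% were called higher and 23.1% lower, with a median of 0.17. The list median was 0.33 with valinomycin alone and 0.52 with DC3000 alone. With median-of-ratios scaling it was 0.29 with both, where that of all tested genes was -0.00424. GORK, the outward channel of guard cells and roots, rose by 1.54 ± 0.30 with both, beside 1.78 ± 0.30 with valinomycin and 0.35 ± 0.30 with DC3000 (limma adjusted p = 0.000458, 0.000205 and 0.352). KUP6, an uptake-family permease, rose by 2.34 ± 0.23, and by 2.77 ± 0.23 with DC3000 alone (limma adjusted p = 7.53e-07 and 1.97e-07). Calcium signalling genes had 13 of 25 called higher and 5 lower, and 14 were higher than with DC3000 alone. CML41 (AT3G50770), a calmodulin-like protein, rose by 5.07 ± 0.30 (limma adjusted p = 6.8e-09). Sugar transport genes were called higher in 10 of 16 and lower in 0. STP13 (AT5G26340), which retrieves hexoses from the cell wall space, had 2.22, 3.4 and 0.855 FPKM in mock, 176, 144 and 47.2 with valinomycin, 63.0, 58.4 and 53.0 with DC3000, and 167, 221 and 155 with both, and it rose by 5.92 ± 0.39 (limma adjusted p = 1.72e-08). The remaining lists, with higher and lower calls among tested genes, were proteasome at 10 and 2 of 32, scavenging of reactive oxygen at 12 and 10 of 29, nitrogen assimilation at 9 and 6 of 19, starch turnover at 10 and 5 of 23, flavonoids at 2 and 4 of 9, phenylpropanoids at 3 and 10 of 20, and auxin response at 10 and 13 of 31. Beside these counts stand 37.2% higher and 23.1% lower of all tested genes, also for the calcium and sugar lists. No called member of any list changed direction under the scalings run.

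The genes that passed either single treatment were 164 above both (0.909% of tested genes) and 576 below both (3.19%), each called against mock, valinomycin and DC3000. These 3 comparisons share the libraries with both treatments, and the counts moved with the scaling, to 474 and 660 with median-of-ratios and 559 and 391 with nuclear scaling. Under all 3 scalings the same 161 genes (0.892%) were above both and the same 379 (2.1%) below both. Without valinomycin replicate 3 the counts were 109 and 388, and without DC3000 replicate 3 they were 115 and 523. Counting libraries alone, the 3 with both lay above all 9 others for 745 genes (4.13%) and below them for 1580 (8.75%). The 164 had a median change over mock of 2.2 with both, 1.24 with valinomycin alone and 1.14 with DC3000 alone, and the 576 had −1.30, −0.55 and −0.54.

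**Figure D5:**
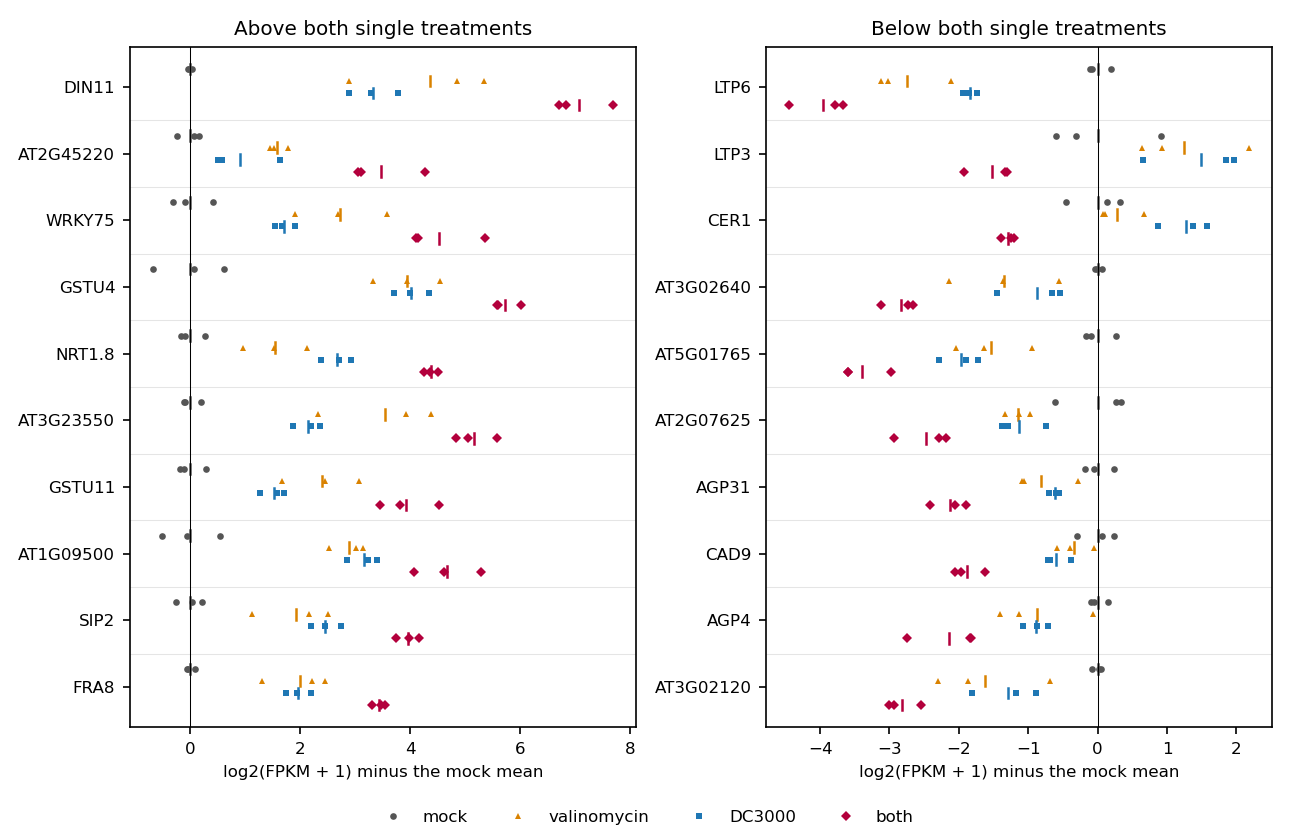
Level as log2(FPKM + 1) minus the mock mean of the 10 genes above both single treatments and the 10 below both with the largest smaller-of-the-pair difference, 1 point per library, by group, with a vertical tick at each group mean. The 3 libraries with both lie beyond the other 9 for every gene shown.

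Among the 10 leading genes above both were NRT1.8, GSTU4 and the MATE efflux gene AT3G23550, beside DIN11, WRKY75 and SIP2. NRT1.8 (AT4G21680; chromosome 4, 11517353 to 11519805, minus strand), which takes nitrate back from the xylem, had 0.509, 0.94 and 0.433 FPKM in mock, 6.01, 3.64 and 2.15 with valinomycin, 11.3, 9.5 and 7.41 with DC3000, and 32.2, 35.7 and 29.8 with both. The libraries with both were above all others, with excesses of 2.84 ± 0.24 (limma adjusted p = 3.87e-06) over valinomycin, and 1.7 ± 0.24 (limma adjusted p = 0.000241) over DC3000. GSTU4 (AT2G29460), a tau-class glutathione transferase, had 3.6, 2.15 and 0.888 FPKM in mock, 69.4, 45.5 and 29.3 with valinomycin, 60.1, 46.9 and 38.2 with DC3000, and 143, 195 and 145 with both, with excesses of 1.79 ± 0.32 and 1.72 ± 0.32 (limma adjusted p = 0.00196 and 0.00138). AT3G23550 had 0.161, 0.413 and 0.151 FPKM in mock, 24.8, 17.7 and 5.22 with valinomycin, 3.54, 4.7 and 5.38 with DC3000, and 40.1, 58.2 and 34.3 with both. GSH1 (AT4G23100) and GSH2 (AT5G27380), which carry out the successive steps of glutathione synthesis, were also above both. GSH1 had 54.2, 52.1 and 42.3 FPKM in mock, 79.7, 83.4 and 69.0 with valinomycin, 169, 166 and 114 with DC3000, and 209.7, 233 and 184 with both. GSH2 had 15.8, 17.1 and 11.3 FPKM in mock, 62.7, 63.1 and 40.4 with valinomycin, 78.6, 78.1 and 53.7 with DC3000, and 127, 146 and 116 with both. For GSH1 the excess was 1.42 ± 0.17 over valinomycin and 0.50 ± 0.17 over DC3000 (limma adjusted p = 7.81e-05 and 0.0405), and for GSH2 it was 1.24 ± 0.21 and 0.89 ± 0.21 (limma adjusted p = 0.00144 and 0.0062). DC3000 replicate 3 was the lowest of its group for GSH1 and GSH2, and their excess over DC3000 is given with it. The other members of the lists above both were GSTU11, IRE1A, C4H, APS1, ERF1, CML41, SAUR9, HSFB1, TPS8 and ETFQO, with rises over mock from 1.26 to 5.07. Of the 25 list members above both, 18 remained so without valinomycin replicate 3, and IRE1A, C4H, CML41, HSFB1, TPS8, ETFQO and BCAT2 lost the call over valinomycin, with limma adjusted p from 0.0648 for TPS8 to 0.179 for ETFQO. Among the 10 leading genes below both were LTP3, LTP6, CER1, AGP31, AGP4 and CAD9. LTP3 (AT5G59320; chromosome 5, 23928954 to 23929816, plus strand), a lipid transfer protein, had 5.26, 13.6 and 4.11 FPKM in mock, 13.7, 11.1 and 34.2 with valinomycin, 11.2, 29.4 and 26.9 with DC3000, and 2.15, 2.08 and 1.05 with both. It was higher than mock with each single treatment, at 1.25 ± 0.44 and 1.49 ± 0.44 (limma adjusted p = 0.0285 and 0.0123), but lower than mock with both, at -1.52 ± 0.44 (limma adjusted p = 0.00837). Without mock replicate 2 that difference had a limma adjusted p of 0.0566. CER1 (AT1G02205), needed for the alkanes of leaf wax, had 14.5, 12.6 and 8.06 FPKM in mock, 12.3, 12.1 and 18.7 with valinomycin, 31.1, 36.0 and 21.7 with DC3000, and 4.2, 3.73 and 4.37 with both, with -1.28 ± 0.23 (limma adjusted p = 0.000218) against mock. With DC3000 alone CER1 stood at 1.27 ± 0.23 against mock (limma adjusted p = 0.000347). AGP31 (AT1G28290), an arabinogalactan protein of the cell wall, fell by 2.1 ± 0.21 on the log2 scale (limma adjusted p = 7.73e-07), and stood -1.31 ± 0.21 against valinomycin and -1.51 ± 0.21 against DC3000.

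The bases before the start of 3 genes whose level with both lay beyond the single treatments are printed because they are among the largest changes and differ in the motifs they hold. These are again 250 bases of TAIR10.1 from RefSeq, 5′ to 3′ on the gene's strand, with matches on either strand in capitals to the G-box CACGTG, the W-box TTGACC or TTGACT, the GCC-box GCCGCC and TGACG, the motifs of basic leucine zipper and helix-loop-helix, WRKY, ERF and TGA factors. WRKY75 and DIN11 were above both and LEA7 lay below all other libraries.
DIN11, chr3:18393497-18393746, plus strand: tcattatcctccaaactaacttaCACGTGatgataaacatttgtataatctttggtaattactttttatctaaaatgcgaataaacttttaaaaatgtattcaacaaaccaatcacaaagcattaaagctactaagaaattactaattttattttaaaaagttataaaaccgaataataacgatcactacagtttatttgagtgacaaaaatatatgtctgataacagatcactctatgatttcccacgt
WRKY75, chr5:4151202-4151451, minus strand: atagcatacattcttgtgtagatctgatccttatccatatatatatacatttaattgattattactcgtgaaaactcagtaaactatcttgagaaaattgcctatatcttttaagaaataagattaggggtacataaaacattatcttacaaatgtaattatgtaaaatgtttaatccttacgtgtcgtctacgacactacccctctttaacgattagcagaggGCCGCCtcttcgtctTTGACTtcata
LEA7, chr1:19619474-19619723, plus strand: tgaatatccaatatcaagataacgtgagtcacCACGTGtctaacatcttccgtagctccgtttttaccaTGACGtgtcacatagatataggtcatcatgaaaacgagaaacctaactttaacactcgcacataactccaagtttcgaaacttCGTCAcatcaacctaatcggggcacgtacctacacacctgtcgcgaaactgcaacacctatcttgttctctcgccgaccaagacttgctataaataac

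DIN11 holds a G-box, WRKY75 a GCC-box and a W-box, and LEA7 a G-box and TGACG matches, counted on both strands, and a G-box and a TGACG match can share letters. Over all promoters the G-box was present in 7.35%, the W-box in 27.6%, the GCC-box in 2.01% and TGACG in 19.2%. Among the 162 promoters of genes above both the shares were 12.3%, 32.7%, 6.79% and 22.8%, and among the 563 of genes below both 8.17%, 23.4%, 1.42% and 18.5%. The GCC-box share above both is 11 promoters. The evening element AAAATATCT was in 2.52% of all promoters, in 4.56% of those called higher at least 2-fold, in 1.58% of those called lower at least 2-fold and in 21.4% of the clock list. The heat shock element, searched as GAA, TTC and GAA with any 2 bases between each, was in 0.414% of all promoters and in 13.0% of the heat shock list, which is 3 of 23.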

How the data were processed

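RNA of 12 libraries was sequenced after extraction with an RNeasy Plant Mini kit and preparation with the CORALL total RNA-seq kit, per the labels' protocols. TAIR10 was the build, according to the submitters' processing notes. How reads were aligned, quantified and assigned to strands is not given in the sources used. The authors deposited 1 table of normalized values for 20233 genes, taken here as FPKM because the column totals differ and exceed the fixed total of a TPM table; the table states no unit and no value is 0. Depth is unknown, and precision is given by the spread over 3 libraries per group.

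Values were transformed as log2(FPKM + 1), a pseudocount of 1 that understates changes of low genes, and the 18048 genes with a mean of at least 1 were tested; 2185 genes were left out. The lowest mean kept was 1.0001 and the highest left out 0.99961. One limma 3.58.1 model (R 4.3.3) of 4 group means was fitted to all 12 libraries with 8 residual degrees of freedom, a variance trend and Benjamini-Hochberg adjustment over all tested genes, and was tested on simulated data. A gene was above or below both single treatments when called in the same direction against mock, valinomycin and DC3000.

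The gene lists (35, with 929 of 959 list and marker symbols matched) and 5 marker lists, and the comparison itself, were chosen with earlier results of these data known. The 174 genes named by rule were the 15 largest rises and falls with groups that do not overlap and a higher mean of at least 8.7 FPKM, the 10 leading genes above and below both, and up to 4 called members per list. Other list members that were above both, and ICS1, VSP2, CORI3, ACX1, ASB1, COR15A, CYP707A1 and DIN6, were chosen after their values were seen. Coordinates and promoters are RefSeq's for TAIR10.1, matched by locus. By blastn 2.17.0, 3 named genes have a copy at 95% identity over at least 50% of the transcript (IGMT2, UGT76E12 and F3H); exons of 3 overlap another gene on the same strand and of 30 on the opposite strand, so their values may hold reads of the other gene. Other settings were the scaling, the pseudocount, the filter on low values, the variance trend, the libraries in the model, a replicate block, and leaving out each library.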

Additional observations from a re-analysis of the deposited data

How the results depend on the processing

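No result on a named gene reversed direction, but balances of counts did under some scalings. Genes above and below both were 164 and 576 as reported, and 559 and 391 with nuclear scaling. Genes higher and lower than valinomycin alone were 851 and 1869 as reported, and 1780 and 1255 with nuclear scaling. Against mock, 6711 higher and 4173 lower became 5826 and 5875 with median-of-ratios scaling. The 214 results on named genes kept their direction in every setting in which each was fitted, which was 203 of them under a mean of at least 5 and 174 in the model of only the 6 libraries compared. Those among them that lost their call were LTP3 against mock without mock replicate 2, AGP4 against valinomycin without replicate 2 of both, and AT3G02120 against valinomycin without valinomycin replicate 3 or without replicate 1 or 2 of both. Counts against single treatments moved most. Genes higher than valinomycin alone, 851 as reported, were 1725 with median-of-ratios scaling and 1780 with nuclear scaling, and genes above both, 164 as reported, were 474 and 559. Genes with all 3 libraries of both above the other 9 rose from 745 to 1184 and 1623 under these scalings, and those below fell from 1580 to 937 with nuclear scaling. The pseudocount of 0.1, no filter, a mean of at least 5, no trend and a model of only the 6 libraries moved no count by over 1.5 times. Replicate numbers did not pair the samples, with correlations of same-numbered libraries of -0.0632 to 0.0742 for mock and both and of -0.242 to 0.439, 2 of 3 over 0.1, for valinomycin and both, and no pair of groups with all 3 over 0.1. With the number as a replicate block, 6895 genes were higher and 4183 lower than mock, 275 above both and 563 below both. Leaving out 1 library at a time gave 5679 to 7063 higher and 3500 to 4675 lower than mock, 549 to 947 higher and 1033 to 2208 lower than valinomycin, 1681 to 2890 higher and 1235 to 2831 lower than DC3000, 63 to 213 above both and 256 to 740 below both. Genes above both were 63 without replicate 2 of both, 77 without replicate 1 and 109 without valinomycin replicate 3; genes below both were 256, 328 and 355 without replicates 2, 1 and 3 of both and 370 without DC3000 replicate 2. Genes lower than valinomycin were 1046, 1167 and 1033 without replicates 1, 2 and 3 of both and 1113 without valinomycin replicate 2, and genes higher 549 without replicate 1 of both. Genes lower than DC3000 were 1309 and 1265 without DC3000 replicates 1 and 2 and 1235 without replicate 2 of both, where 1681 were higher. The cause was not tested. The unknown depth limits what can be said of genes near 1 FPKM.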

Other observations

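Gene families were also counted by words of the RefSeq product names. They were chosen after their values were seen, so these counts are descriptions. Other families were counted too, such as ribosomal proteins, with 40 of 314 higher and 176 lower, and UDP-glycosyltransferases, with 47 of 91 higher and 21 lower. Over all tested genes 37.2% were called higher than mock and 23.1% lower. Of 32 tested arabinogalactan proteins, which sit at the cell wall and membrane, 28 were called lower than mock with both treatments and 2 higher, and 7 (21.9%) lay below both single treatments, beside 3.19% of all tested genes. Expansins, which loosen cell walls, were lower in 13 of 16 and higher in 2, and 5 lay below both. Lipid transfer proteins were lower in 25 of 49 and higher in 9, and 10 lay below both. The below-both counts of these families were 7, 4 and 7 with median-of-ratios scaling and 6, 4 and 6 with nuclear scaling.

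WRKY transcription factors, many of which act in defence and senescence, were called higher than mock in 23 of 31 (74.2%) and lower in 0. These stand beside 37.2% and 23.1% of all tested genes. Their median log2 fold change was 1.44 with both, 1.19 with valinomycin and 0.66 with DC3000. Carriers of the MATE efflux family, which export organic compounds, were higher in 19 of 32 (59.4%) and lower in 4, and 4 (12.5%) lay above both single treatments under each of the 3 scalings. Of all 18048 tested genes 164 (0.909%) lay above both as reported, 474 with median-of-ratios scaling and 559 with nuclear scaling. Their median change was 1.33 with both, 0.34 with valinomycin alone and 0.52 with DC3000 alone.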
